A study of Mus musculus with 4 samples.

Results

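The proteasome is the barrel-shaped protease that degrades ubiquitin-tagged proteins, and 46 of the 11352 gene rows of the read table carried the symbols of its subunits and helpers. They were chosen by name alone: symbols starting with Psma to Psmg and a number, without the immunoproteasome subunits Psmb8 and Psmb9 and without pseudogenes. The choice used no measured value. Of the 46 genes, 7 encode 20S alpha subunits, 9 encode 20S beta subunits, 6 encode 19S ATPases, 11 encode 19S subunits that are not ATPases, and 12 encode activators, an inhibitor or assembly chaperones. The last, Psmc3ip, matches by name only and encodes a meiotic recombination protein that is no proteasome subunit.

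The cells were group 2 innate lymphoid cells (ILC2), tissue-resident lymphocytes without antigen receptors, sorted from the pancreas of mice labelled C57BL6J that carried KIKR, a fluorescent protein that light turns from green to red. Photoconverted (KIKR-Red) and non-photoconverted (KIKR-Green) cells were index-sorted into 384-well plates and sequenced by SORT-seq, in which, as in the CEL-seq2 protocol it builds on, reads come from transcript 3′ ends. The series title names fasting, but the labels of the plates give no feeding state, age, sex, animal or time and place of the light exposure. Row names could be used for plate 1 only, which held 12 photoconverted cells, 151 non-photoconverted cells and 221 empty wells. Cells with at least 500 genes detected and under 25% mitochondrial reads were kept, which left 8 photoconverted and 98 non-photoconverted cells.

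One plate gives 1 sample of each colour, so no difference has a replicate check and no p-value is given. Exact binomial (Clopper-Pearson) intervals at 95% cover the counting error of cells only. A gene was called detected in a cell at 16 or more reads, and measured when it was detected in at least 10 of the 106 cells. The photoconverted cells were deeper, with a median of 2748.5 genes against 1637 in all non-photoconverted cells. Each was therefore set against the 5 non-photoconverted cells nearest in genes detected. These 40 draws held 29 distinct cells, carried the weight of 22.9 equal ones and had a median of 2718.5 genes and 483926 gene reads, against 540662 gene reads in photoconverted cells. The deepest photoconverted cell, cell 4 with 5129 genes, had no match of like depth, since the deepest non-photoconverted cell had 4480. Mean gene reads were 638664 in photoconverted and 492604 in depth-matched cells. Levels are reads per 1000000 gene reads (CPM) without spike-ins. They are not divided by gene length, since only transcript ends are read, and genes are ordered here by the share of cells with the gene.

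At least 3 of 12 ILC2 markers were detected in 86 of the 106 cells, including 8 of 8 photoconverted cells. Gata3, the lineage-defining transcription factor, was found in all 8 photoconverted cells and in 83.7% of the non-photoconverted ones. No cell held 3 markers of T cells, ILC3 or natural killer cells, though these lists had only 4, 3 and 3 genes in the table and the other cell type lists at most 2. Free RNA was low: 6 of 221 empty wells held 16 or more reads of any proteasome gene, no gene reached that in more than 1 empty well, and 40 of the 46 were in 0 empty wells.

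As background, the 20S core particle is a stack of rings, in which the outer alpha rings gate the entrance and the inner beta rings hold the catalytic sites. The 19S regulatory particle caps the core: its ring of ATPases unfolds substrates and threads them inward, and its other subunits bind ubiquitin chains or remove them. In cells exposed to interferon, and in many lymphocytes, inducible beta subunits replace the catalytic ones and PA28 activators can replace the 19S cap.

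Of the 46 genes, 38 were measured. All 7 alpha subunits, 8 of the 9 beta subunits and all 17 regulatory particle subunits chosen by name were among them, beside 6 of the 12 activator or assembly genes. The 8 that fell below the filter were Psmb11, Psmc3ip, Psmd5, Psmd9, Psmf1, Psmg1, Psmg2 and Psmg4. Psmb11, the thymus-specific catalytic subunit, was detected in 0 of 98 non-photoconverted cells, with an exact upper bound of 3.69%, and in none of the 8 photoconverted cells. Psma8, the testis-specific alpha subunit, was not analysed here.

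In non-photoconverted ILC2, core subunits were detected in more cells than regulatory subunits. Core shares ran from 18.4% for Psma6 to 39.8% for Psmb1 with a median of 23.5% over 15 genes. Regulatory shares ran from 8.16% for Psmc5 and Psmd1 to 26.5% for Psmd8 with a median of 13.3% over 17 genes, and the median over all 3530 measured genes was 15.3%. The ranges of the 2 particles overlapped. Psme1, which encodes the alpha chain of the PA28 activator, had the highest share of any measured proteasome gene, 49% (38.7 to 59.3%). Summed over its genes, the core particle had a mean of 1606 CPM in these cells, the regulatory particle 1164 CPM and the activator and assembly genes 854 CPM.

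**Figure D1:**
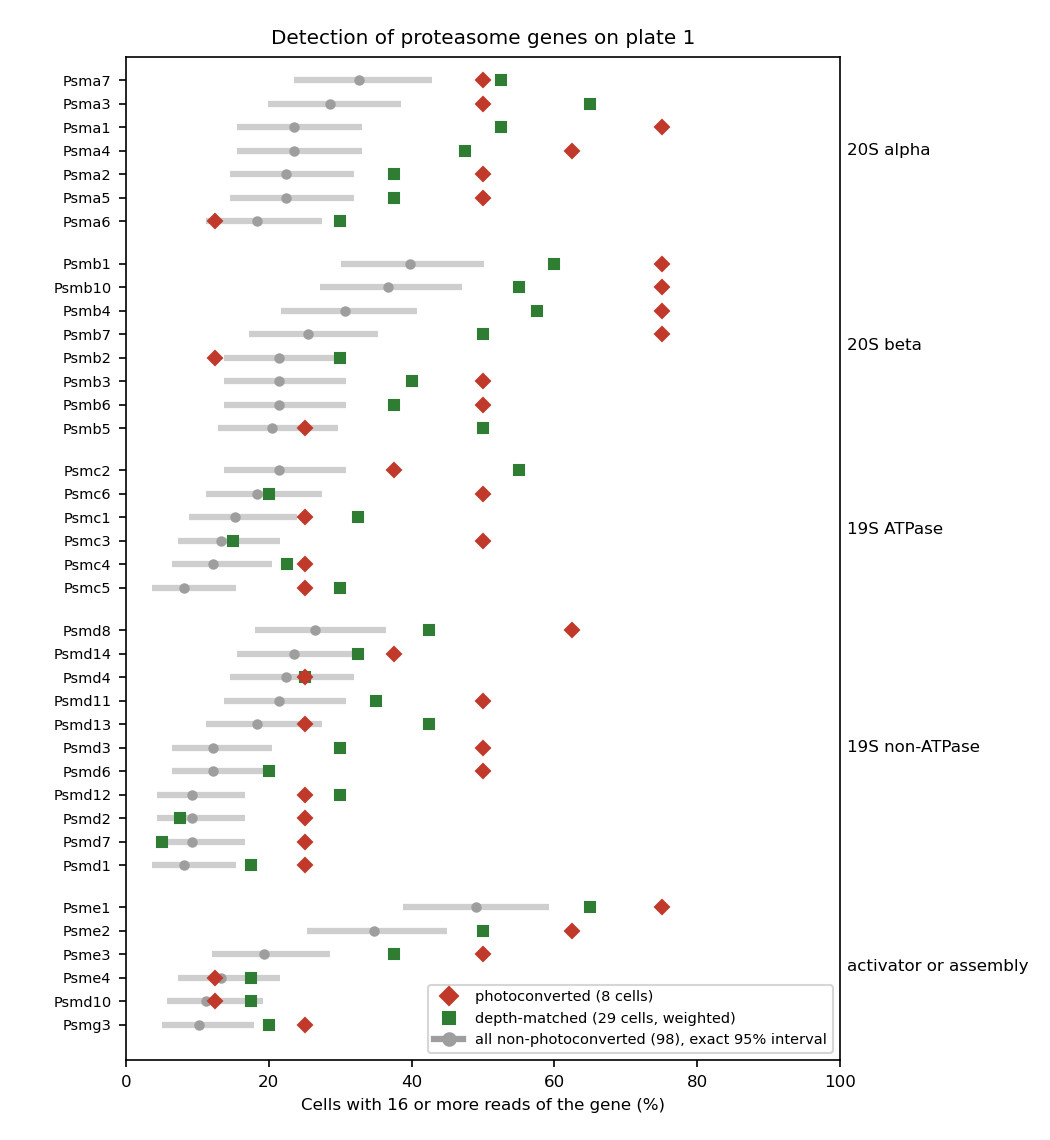
Share of cells with 16 or more reads of each measured proteasome gene on plate 1, by structural class. Red diamonds are the 8 photoconverted cells, green squares the depth-matched cells, and grey points with bars all 98 non-photoconverted cells with exact 95% intervals. Psmc3, Psmc6 and Psmd6 show red diamonds at 50% and green squares at 15% to 20%, whereas for Psmb5 the diamond (25%) lies left of the square (50%).

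Detection followed the depth of the cell. In the 33 non-photoconverted cells with the fewest genes (502 to 1194), the median share over measured core subunits was 6.06%. It was 21.2% in the middle 33 cells (1220 to 2026 genes) and 46.9% in the deepest 32 (2067 to 4480 genes). The regulatory medians were 6.06%, 12.1% and 28.1%. Summed levels followed depth less closely: mean core CPM was 1515, 1582 and 1724, and mean regulatory CPM was 1523, 881 and 1085. Over the 98 cells, Spearman's rho with genes detected was 0.83 for core subunits detected and 0.72 for regulatory subunits detected. The numbers of core and regulatory subunits detected had a rho of 0.64, against 0.18 once each cell was drawn down to 1000 reads and 0.09 for the summed CPM of the 2 particles. These values describe cells of 1 plate that share a library and differ in depth.

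**Figure D2:**
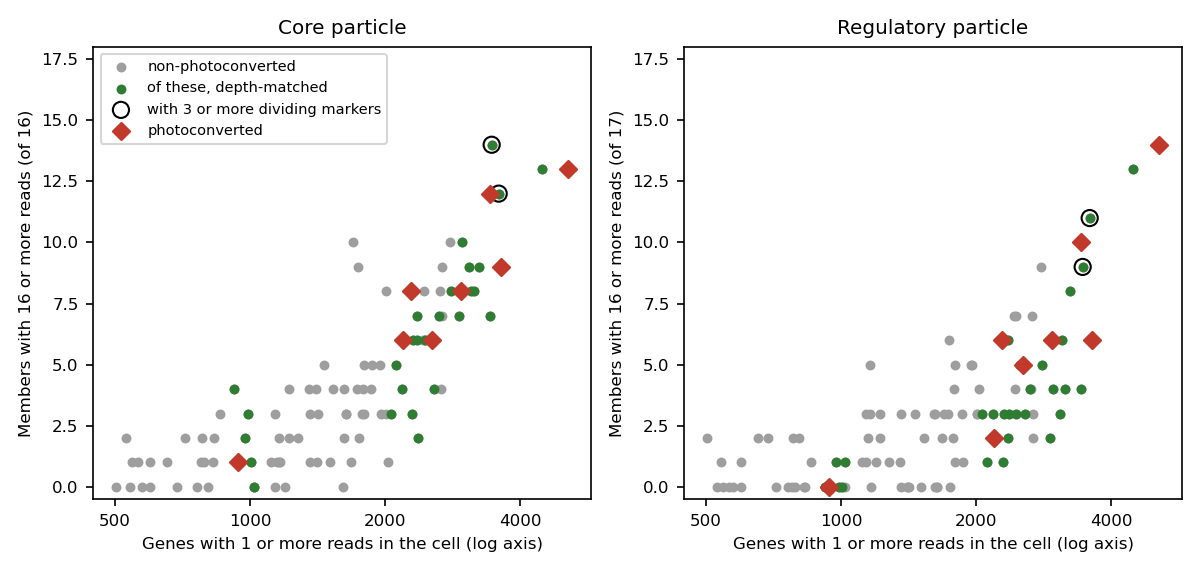
Number of core (left, of 16) and regulatory (right, of 17) subunits with 16 or more reads in each cell, against the genes detected in the cell on a log axis. Red diamonds are the 8 photoconverted cells, green points the 29 depth-matched cells, grey points the other non-photoconverted cells, and rings mark the 2 cells with 3 or more dividing markers; both colours climb with depth and overlap at matched depth.

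The number of subunits detected per cell overlapped between photoconverted cells and cells of like depth. The 8 photoconverted cells, numbered 1 to 8, had 12, 8, 8, 13, 6, 6, 9 and 1 core subunits detected. Depth-matched cells had 0 to 14 with a median of 7. The median was 8 in photoconverted cells and 3 over the whole non-photoconverted set. For the regulatory particle the 8 cells had 10, 6, 6, 14, 2, 5, 6 and 0 subunits detected, with a median of 6 against 4 in depth-matched and 2 in all non-photoconverted cells. Cell 8, with 1 core and 0 regulatory subunits, also had the fewest genes, 938, and cell 4, with 13 and 14, had the most, 5129. Cells without any detected core subunit numbered 0 of 8 among photoconverted (0 to 36.9%) and 12 of 98 among non-photoconverted cells (12.2%, 6.49 to 20.4%). Cells without any detected regulatory subunit numbered 1 of 8 (0.32 to 52.7%) and 25 of 98 (25.5%, 17.2 to 35.3%). These 2 comparisons are with the whole, shallower non-photoconverted set. In depth-matched cells the lowest number detected was also 0 for either particle.

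The summed levels of the 2 particles lay close together between the colours. Core particle CPM in cells 1 to 8 was 2957, 1980, 1854, 1755, 2688, 988, 823 and 2193. The mean was 1905 CPM, against 1800 CPM in depth-matched cells, a log2 ratio of 0.08. Regulatory particle CPM in cells 1 to 8 was 1639, 2216, 1070, 1612, 432, 645, 557 and 17.7. That mean was 1024 CPM against 1036 CPM, a log2 ratio of -0.02. The depth-matched mean includes 1 shallow cell of 1018 genes at 4907 CPM, the highest of the set, whose part in the sign was not tested. Mean core level over mean regulatory level was 1.86 for photoconverted cells, 1.74 for depth-matched cells and 1.38 for the whole non-photoconverted set. The first 2 differed by 0.10 on the log2 scale. That sign rested on single cells: it was -0.07 without cell 5 and -0.18 without cell 8.

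Of the depth-matched cells, 2 carried 3 or more markers of dividing cells, and each was matched 3 times. They had 3459 and 3586 genes, 14 and 12 core subunits, 9 and 11 regulatory subunits, and core levels of 3004 and 3572 CPM. No photoconverted cell held 3 such markers. Without these cells the log2 ratio of the core level was 0.32 and that of the regulatory level 0.24, and the part of cell division in the comparison was not tested.

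By detection, more proteasome genes lay above than below the depth-matched share. The share was at least 20 percentage points higher in photoconverted cells for 9 of 38 genes (23.7%), against 18.2% of all 3530 measured genes. It was at least 20 points lower for 1 of 38 (2.63%), against 9.69% of all measured genes. The lower count was not stable to single cells: it was 2 to 5 when cell 1, 2, 3, 4, 5, 6 or 8 was left out, with 5 without cell 6 (13.2% against 11.8% of measured genes) and 5 without cell 8 (13.2% against 12.2%). By any amount, 25 genes were higher (65.8% against 53.8% of all measured genes), 12 were lower (31.6% against 39.2%) and 1 was equal. The median difference was 11.2 points over the 38 genes and 2.5 points over all measured genes. Mean levels gave another picture. With 10 CPM added, 4 of 38 genes were at least 2-fold higher (10.5% against 11.5% of all measured genes) and 6 at least 2-fold lower (15.8% against 27.1%). The share and the mean level differed in direction for 10 of the 25 genes with a higher share and for 2 of the 12 with a lower one. No order of expression is read for those 12 genes. Counts of higher and lower genes, here and by class below, are of shares and include them. The 10 were Psma4, Psmb1, Psmb4, Psmb6, Psmc4, Psmd1, Psmd11, Psmd7, Psme1 and Psme3, and the 2 were Psmc5 and Psmd10. Reads per cell overlapped between photoconverted and depth-matched cells for 38 of 38 genes. This overlap says little, since for each gene the lowest count was at most 2 reads in photoconverted and 0 in depth-matched cells.

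Because the filter pooled the colours, 5 regulatory genes (Psmc5, Psmd1, Psmd12, Psmd2 and Psmd7) passed it only with photoconverted cells counted. Among genes below the filter, Psmd5 was 22.5 points lower (0 of 8 against 22.5% of depth-matched cells). Psmg2, also below it, was 20 points higher (2 of 8 against 5%). When at least 10 non-photoconverted cells were asked for, 33 genes remained, of which 8 (24.2%, against 16.8% of measured genes) were at least 20 points higher and 1 (3.03%, against 11.2%) at least 20 points lower. Drawing each cell down to 1000 reads left 19 of 38 genes higher and 19 lower, against 1557 and 1973 of all 3530 measured genes. The median difference was -0.32 points against -0.77 over all measured genes. No proteasome gene was then expected in more than 19.4% of cells of either set, so a difference of 20 points could not be reached. At 10000 reads, where shares rose to 68%, 2 of 38 genes (5.26%) were at least 20 points higher, against 9.04% of all measured genes, and 2 were lower, against 5.64%.

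Among the alpha subunits, which form and gate the entrance to the core, the median difference was 12.5 points over 7 genes, with 4 higher and 3 lower. Psma1 (chr7:114264606-114276118, minus strand) stood highest. Its reads in photoconverted cells 1 to 8 were 59, 92, 129, 45, 0, 0, 160 and 108, and depth-matched cells ranged from 0 to 273 with a median of 14. It was detected in 6 of 8 cells (exact interval 34.9 to 96.8%), against 52.5% of depth-matched and 23.5% (15.5 to 33.1%) of all non-photoconverted cells. Its mean level was 331 CPM against 121 CPM, a log2 ratio of 1.38 with 10 CPM added. Psma6 lay at the other end: its reads were 0, 3, 0, 25, 0, 1, 11 and 0, so that 1 of 8 cells passed (0.32 to 52.7%) against 30% of depth-matched cells. Its mean level was 4.38 CPM against 38.3 CPM. Psma3 was detected in 4 of 8 cells against 65%, and Psma7 in 4 of 8 against 52.5%. Psma4 was detected in 5 of 8 against 47.5%, though its mean level was lower in photoconverted cells, 127 against 157 CPM. The alpha subunits, which are built into the same ring, thus lay on both sides of the depth-matched share.

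The 8 measured beta subunits had a median difference of 13.75 points, with 6 higher and 2 lower. The structural beta subunits Psmb1 and Psmb4 were each detected in 6 of 8 photoconverted cells, against 60% and 57.5% of depth-matched cells, with mean levels close to those of depth-matched cells (110 against 121 CPM, and 163 against 196 CPM). Psmb2, another structural subunit, was detected in 1 of 8 against 30%. Its reads were 3, 0, 11, 6, 1, 90, 0 and 0, so most of its level in photoconverted cells came from cell 6.

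The catalytic beta subunits went different ways. Psmb5 (chr14:54614119-54618022, minus strand) encodes the chymotrypsin-like site. It was the 1 measured proteasome gene at least 20 points lower. Its reads in cells 1 to 8 were 18, 0, 0, 3, 6, 0, 30 and 0, against a range of 0 to 174 and a median of 13 in depth-matched cells. It was detected in 2 of 8 photoconverted cells (3.19 to 65.1%), 50% of depth-matched cells and 20.4% (12.9 to 29.7%) of all non-photoconverted cells. The mean level was 10.6 CPM against 81.7 CPM, a log2 ratio of -2.15, and -1.10 against all non-photoconverted cells. The share in photoconverted cells thus lay below that of depth-matched cells and close to that of all non-photoconverted cells, and the interval of 2 in 8 includes both. Psmb6, the caspase-like site, was detected in 4 of 8 cells against 37.5%, with mean levels of 61.1 and 83.0 CPM that ran the other way. Psmb7 (chr2:38588036-38644087, minus strand), the trypsin-like site, had reads of 105, 53, 20, 502, 25, 2, 83 and 2. It was detected in 6 of 8 against 50%, with similar mean levels of 108 and 92.4 CPM. Psmb10 (chr8:105935735-105938444, minus strand), the inducible counterpart of Psmb7, had reads of 64, 144, 336, 61, 0, 51, 52 and 0 and was also detected in 6 of 8, against 55%, with 156 and 117 CPM.

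Set beside their inducible counterparts, the catalytic subunits differed in which form was seen in a cell. Psmb8, which replaces Psmb5 in the immunoproteasome, was detected without Psmb5 in 40.8% of the 98 non-photoconverted cells. Psmb5 without Psmb8 was seen in 2.04%, both in 18.4% and neither in 38.8%. In photoconverted cells, 2 of 8 held both, 0 held Psmb5 alone, 3 held Psmb8 alone and 3 held neither. In depth-matched cells 47.5% held both and 37.5% Psmb8 alone. Psmb8 itself was detected in 5 of 8 photoconverted and 85% of depth-matched cells. For Psmb7 and Psmb10, 5 of 8 photoconverted cells held both, against 27.5% of depth-matched and 12.2% of all non-photoconverted cells. For Psmb6 and Psmb9, 2 of 8 held both, against 20% and 8.16%, and Psmb9 alone was rarer in non-photoconverted cells (9.18%) than Psmb6 alone (13.3%). Over all non-photoconverted cells the inducible form was seen more often for Psmb8 (59.2% against 20.4% for Psmb5) and for Psmb10 (36.7% against 25.5% for Psmb7), and less often for Psmb9 (17.3% against 21.4% for Psmb6).

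Promoters are shown for Psmb5 and Psmb6 because these 2 catalytic subunits carry the letters of an antioxidant response element, the kind of site bound by the proteasome regulators Nfe2l1 and Nfe2l2. RefSeq promoters (GRCm38.p6, 250 bases before the start) matched 39 of the 46 genes, and 10 motifs were searched on both strands. Psmb1, Psmb2, Psmb7, Psmc3, Psmd3, Psmd7 and Psmg2 had no matched promoter and were not searched, so nothing is known here of the third catalytic subunit, Psmb7. The motifs shown here were picked after the matches were seen. TGACNNNGC was present upstream of 5 of 39 genes (12.8%), Psmb5, Psmb6, Psmc6, Psmd12 and Psmd9, against 10.2% of 32851 promoters. The ETS core CCGGAAG was present upstream of 13 of 39 (33.3%) against 6.91% of all promoters. It was found upstream of 8 of 14 regulatory subunits and 1 of 13 core subunits with a promoter. Each run is printed 5′ to 3′ on the gene's strand, up to the start annotated in GENCODE where that comes first, with matches to the 2 motifs, which do not overlap here, in capitals. The Psmb5 run is chr14:54618023-54618245 on the minus strand, with the match 47 bases before the RefSeq start. The Psmb6 run is chr11:70525107-70525356 on the plus strand, with the match 9 bases before it.
Psmb5: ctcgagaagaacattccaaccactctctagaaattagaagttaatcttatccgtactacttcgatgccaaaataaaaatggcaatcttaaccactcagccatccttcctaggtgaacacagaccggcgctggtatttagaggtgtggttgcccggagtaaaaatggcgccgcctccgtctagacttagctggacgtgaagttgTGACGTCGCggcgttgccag
Psmb6: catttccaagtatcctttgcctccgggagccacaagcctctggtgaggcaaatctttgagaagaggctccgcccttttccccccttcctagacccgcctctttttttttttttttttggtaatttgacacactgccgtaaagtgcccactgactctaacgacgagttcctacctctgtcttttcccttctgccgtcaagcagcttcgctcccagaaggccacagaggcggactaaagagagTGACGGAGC
A match is a string of letters and no measured site. The 4 measured genes with TGACNNNGC had differences of -25 (Psmb5), 12.5 (Psmb6), 30 (Psmc6) and -5 points (Psmd12), and so did not share a direction. The 11 measured genes with CCGGAAG had a median difference of 0 points and the 21 without it 10 points. Other searched motifs split the genes either way. The GC box GGGCGG was upstream of 53.8% of the 39 genes, against 32.7% of all promoters, with medians of 12.5 points with it and 2.5 without. For CCAAT (35.9% against 33.8%) these medians were -1.25 and 12.5 points.

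The 6 regulatory ATPases had a median difference of -1.25 points, with 3 higher and 3 lower, and included the gene with the widest gap upward, Psmc3. Psmc3 (chr2:91054009-91066369, plus strand) had reads of 132, 0, 110, 11, 45, 83, 1 and 0 in cells 1 to 8, against 0 to 192 with a median of 0 in depth-matched cells. It was detected in 4 of 8 (15.7 to 84.3%) against 15% of depth-matched and 13.3% (7.26 to 21.6%) of all non-photoconverted cells. Its mean level was 95.9 CPM against 30.0 CPM, a log2 ratio of 1.41. Psmc6 (chr14:45329788-45349705, plus strand) had reads of 172, 0, 0, 111, 0, 162, 24 and 0. It was also detected in 4 of 8, against 20%. Its level was 85.6 CPM against 22.5 CPM, a log2 ratio of 1.56, but all non-photoconverted cells had 129 CPM and the ratio against them was -0.54. Psmc2 went the other way, with reads of 189, 84, 0, 240, 2, 0, 0 and 0 and detection in 3 of 8 (8.52 to 75.5%) against 55%. Psmc4 was detected in 2 of 8 against 22.5%, with 9.63 against 38.6 CPM. The subunits of 1 ATPase ring therefore lay on both sides of the depth-matched share. The Psmc6 promoter is shown because it holds both TGACNNNGC and CCGGAAG. That of Psmd12, a gene at -5 points, also holds both and is not shown. The Psmc6 run is chr14:45329574-45329787 on the plus strand, with the antioxidant response element letters 227 bases before the RefSeq start on the opposite strand and the ETS core 100 bases before it.
Psmc6: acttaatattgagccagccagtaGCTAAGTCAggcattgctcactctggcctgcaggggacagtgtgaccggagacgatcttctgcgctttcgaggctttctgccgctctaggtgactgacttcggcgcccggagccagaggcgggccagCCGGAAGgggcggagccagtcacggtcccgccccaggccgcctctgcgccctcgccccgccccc

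The 11 regulatory subunits that are not ATPases had a median difference of 15 points, with 8 higher, 2 lower and 1 equal. Psmd6 (chr14:14112174-14120984, minus strand), a subunit of the lid, had reads of 4, 61, 0, 29, 51, 0, 114 and 0, against 0 to 89 with a median of 0. It was detected in 4 of 8 against 20% of depth-matched and 12.2% (6.49 to 20.4%) of all non-photoconverted cells, at 63.1 against 28.0 CPM. Psmd8, another lid subunit, was detected in 5 of 8 (24.5 to 91.5%) against 42.5%, with 115 and 83.9 CPM. Psmd11 was detected in 4 of 8 against 35%, but its mean level was lower, 65.5 against 112 CPM. Psmd14, the lid's deubiquitinase, was detected in 3 of 8 against 32.5%. Its reads were 10, 203, 0, 1048, 1, 0, 204 and 0, with the most in cell 4. Its mean of 170 CPM was above the 98.1 CPM of depth-matched cells and below the 252 CPM of all non-photoconverted cells. Psmd13, also of the lid, was detected in 2 of 8 against 42.5%. Only cells 3 and 4 had any of its reads, 53 and 51, and its mean was 15.4 against 91.5 CPM. Psmd3 and Psmd7 were each 20 points higher, but the mean level of Psmd7 was lower, 85.0 against 123 CPM. Psmd7 was detected in 5% of depth-matched cells, and most of that mean came from 1 shallow cell. This cell had 284 reads of Psmd7 among 59298 gene reads. Exactly at the 20 points asked for lay 4 genes, Psmb10, Psmd3, Psmd7 and Psmd8, and the nearest below were Psmb4 and Psmd2 at 17.5 points.

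**Figure D3:**
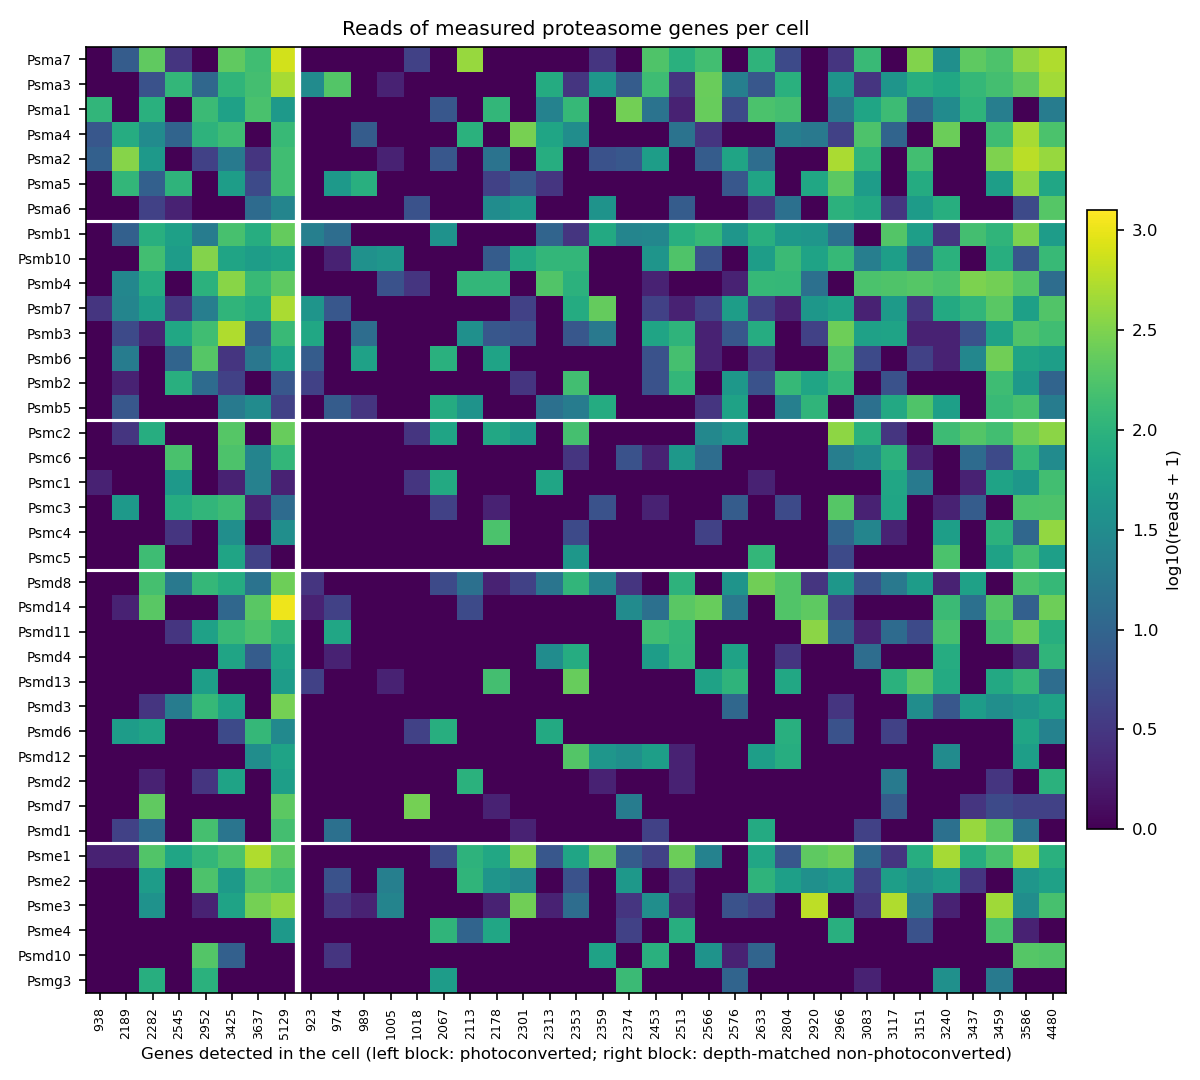
Reads of the 38 measured proteasome genes, as log10 of reads plus 1, in the 8 photoconverted cells (left block) and the 29 distinct depth-matched cells (right block), each sorted by genes detected (bottom labels). White lines part the structural classes; cells of few genes are dark in nearly every row in both blocks, and Psmb5 is dark in 4 of the 8 photoconverted cells.

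Activators and assembly genes were the third group. Psme1 and Psme2 encode the PA28 activator chains that interferon induces. Psme1 (chr14:55578123-55581529, plus strand) had reads of 165, 181, 112, 207, 1, 66, 536 and 1, and was detected in 6 of 8 against 65%, at 214 and 247 CPM. Psme2 was detected in 5 of 8 against 50%, with 93.6 and 64 CPM. Psme3, the nuclear activator, was detected in 4 of 8 against 37.5%, but its mean level was lower, 87.7 against 158 CPM. None of the 6 measured genes of the class reached 20 points in either direction. Their summed mean level was 596 CPM over all 12 genes in photoconverted cells and 682 CPM in depth-matched cells, a log2 ratio of -0.20. The measured genes named here lie at the positions of GENCODE M21 on mm10. Psma4, Psmb7, Psmc3, Psmd13 and Psme1 overlap a coding gene on the opposite strand, Psma2 and Psmg3 one on the same strand, and Psmd1 one on each. Since the sources used here do not say how strand was used in counting, their reads may include the neighbour's. The 5 annotated copies of members (Psmb5-ps, Psmb6-ps, Psmb6-ps2, Psmb7-ps2 and Psme2b) had 0 rows in the table, so reads shared with them cannot be told apart from the parent genes.

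Lists of related genes were set beside the proteasome by the same measure. The 7 measured partners and regulators of the proteasome had a median difference of 20 points, with 5 higher and 2 lower, and 4 of them at least 20 points higher, where 53.8% of all measured genes were higher and 18.2% at least 20 points higher. Akirin2, which brings proteasomes into the nucleus, was detected in 4 of 8 cells against 12.5%. It was in 7.14% of non-photoconverted cells and passed the filter only with photoconverted cells counted. Uchl5, of the same list, fell below the filter with 0 of 8 photoconverted cells against 32.5%. Nfe2l2, a stress-response transcription factor, was detected in 4 of 8 against 30%, at 340 and 62.8 CPM. Of the 3 partners with the highest level, Pomp, the core assembly chaperone, was detected in 4 of 8 against 32.5%. Txnl1, a thioredoxin that binds the 19S particle, was in 4 of 8 against 30%. Shfm1, a small lid subunit that the choice by name left out of the regulatory set, was in 5 of 8 against 72.5%. Nfe2l1, the main activator of proteasome genes, was below the filter, at 1 of 8 photoconverted cells, and 5.10% of cells that were not photoconverted. Akirin2, Nfe2l2 and Nfe2l1 are named for their roles after their values were seen.

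Complexes of other function gave medians on both sides of 0. The 8 genes of the immunoproteasome and of peptide supply to MHC class I had a median of 3.75 points. Their most abundant members, B2m, H2-K1 and H2-D1, were each found in all 8 photoconverted cells, against 97.5%, 97.5% and 100% of depth-matched ones. The 10 measured ubiquitin genes and shuttle factors had a median of 1.25 points. Rps27a, which encodes a ubiquitin fusion, was in 8 of 8 against 95%, and the activating enzyme Uba1 in 7 of 8 against 75%. The COP9 signalosome, a relative of the 19S lid, had 4 measured genes with a median of -11.25 points. Cops6 was 50 points higher, Cops2 5 points lower and Cops8 17.5 points lower. Cops6 was in 9.18% of non-photoconverted cells and passed the filter only with photoconverted cells counted. The translation factor eIF3, which shares the lid's architecture, had 12 genes and a median of 2.5 points, with Eif3e at 5, Eif3k at 17.5 and Eif3a at -15. The CCT chaperonin, a ring-shaped folding machine, had 8 genes and a median of -5 points, with Cct2 at 10, Cct6a at 5 and Cct8 at -35. Against these lists and the 2.5 points of all measured genes, the core particle stood at 12.5 points and the regulatory particle at 7.5, and no test sets them apart.

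**Figure D4:**
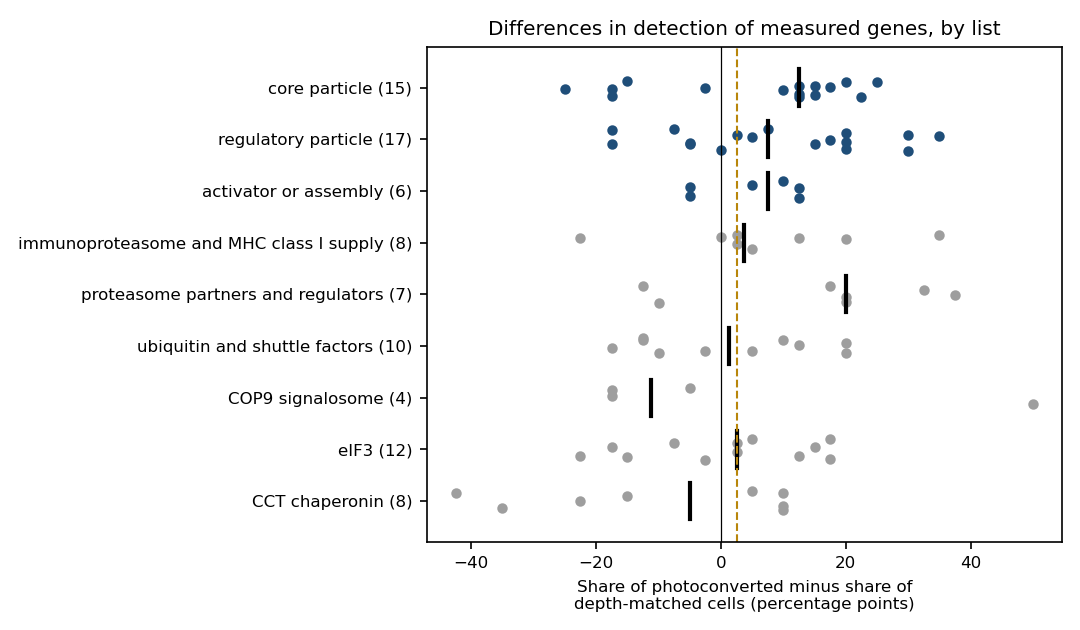
Difference in the share of cells with 16 or more reads, photoconverted minus depth-matched, in percentage points, for each measured gene of each list (number of genes in brackets). Blue points are proteasome genes and grey points other lists, black bars are medians, and the dashed line is the median of all measured genes (2.5 points); the core particle spans -25 to 25 points and the regulatory particle -17.5 to 35.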

How the data were processed

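Single ILC2 from mouse pancreas were measured on 4 plates by SORT-seq. The submitters' processing notes name mm10 and the tools STAR, STARsolo and edgeR, without versions or roles. The authors deposited raw read counts per gene row and well, which are reads and not molecules, and a sort record with each well's colour and red fluorescence intensity in arbitrary units, per the file headers. Plate 1 held 52614294 reads. Spike-in rows held 43.2% of them and were left out. Row names were used for plate 1 only: on plates 2 to 4 the rows named as mitochondrial held 0.0531%, 0.011% and 0.0204% of reads, against 5.63% on plate 1, so plates 2 to 4 were not used. Each well is 1 cell, and doublets were not called.

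Shares, CPM, depth matching and exact intervals were computed with Python 3.11.15, numpy 2.4.6, pandas 2.3.3 and scipy 1.17.1. Depth-matched shares and the drawing down were tested on simulated data, and CPM levels and intervals were not. In the simulation detection was set to follow genes detected, the quantity used for matching, so it cannot show how well matching works in the real cells. Genes and lists were chosen with earlier results of these data known. Genes named by rule were, in each structural class, the 3 with the highest mean CPM, the catalytic beta subunits Psmb5, Psmb6, Psmb7 and Psmb10, and the 5 measured members with the widest difference each way. In each other list they were the 3 with the highest CPM, of which 1 gene is not reported here. Other genes were named after their values were seen. Alternatives were other detection limits (4 and 64 reads), matching rules, cell filters, drawing down to 1000 or 10000 reads, leaving out each photoconverted cell, the dividing cells or Psmb10, medians over cells, and a 2-fold rule. Drawing down to 10000 reads against matched cells and the filter on non-photoconverted cells alone were added after seeing the data.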

Additional observations from a re-analysis of the deposited data

How the results depend on the processing

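The median difference in share was 12.5 points for the core particle and 7.5 for the regulatory particle, against 2.5 over all measured genes. Against all non-photoconverted cells these were 28.6, 16.1 and 15.8 points. Drawn to 1000 reads against matched cells they were -0.72, 0.48 and -0.77, so the core lay at the median of all genes. Drawn to 10000 reads against matched cells they were 3.39, 4.44 and 0.77. The order of the 2 particles was not stable. The core lay below the regulatory particle without cell 1 (8.57 and 11.4) and without cell 5 (5.71 and 8.57), and both were 10 at 4 reads. Without cell 4, the deepest, the values were 8.57, 7.14 and 0. With single cells left out, the core ran from 5.71 to 17.1 and the regulatory particle from 7.14 to 11.4. The sign of the summed levels was not stable. The log2 core ratio (0.08) was 0.32 without dividing cells, and ran from -0.060 (without cell 5) to 0.25 when each photoconverted cell was left out. The log2 regulatory ratio (-0.02) was 0.21 with at least 1000 genes per cell, 0.38 without the 2 photoconverted cells of lowest red fluorescence and 0.24 without dividing cells. Leaving out single cells gave -0.35 to 0.21, with a positive value without cell 5, 6, 7 or 8. The difference in the log2 core to regulatory ratio (0.10) was -0.18 with at least 1000 genes, -0.16 without the 2 cells of lowest red fluorescence, and -0.18 to 0.37 with single cells left out. It was 0.46 with medians over cells, 0.45 with cells nearest in gene reads and 0.43 against all non-photoconverted cells. With medians over cells the log2 core ratio was 0.17 and the log2 regulatory ratio -0.29. In each case the cause was not tested.

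The count of proteasome genes at least 20 points higher was 9 (23.7%, against 18.2% of all measured genes). It was 20 against all non-photoconverted cells (52.6% against 42%), 15 without the 2 cells of lowest red fluorescence (39.5% against 22.4%), 4 under the 2-fold rule for mean CPM (10.5% against 11.5%), and 2 when drawn to 10000 reads against matched cells (5.26% against 9.04%). With single cells left out it was 6 to 13, against 15.6% to 23% of all measured genes. The 6 came without cell 4 (16.2% against 15.6%). The count at least 20 points lower was 1 (2.63% against 9.69%). It was 3 at 4 reads (against 10.4% of all genes), 2 at 64 reads (7.68%), 2 with the 10 nearest cells (7.31%), 2 with cells nearest in gene reads (8.9%), 2 when drawn to 10000 reads against matched cells (5.64%), 5 with at least 1000 genes (12.3%), 2 without dividing cells (9.35%), 2 with no filter on low genes (4.83%) and 6 under the 2-fold rule (27.1%). With single cells left out it was 1 to 5, against 9.77% to 13.5% of all measured genes. It was 0 against all non-photoconverted cells (0.425%), also when drawn to 10000 reads (0.34%). Drawn to 1000 reads, both counts were 0 against either set, but no proteasome gene was expected in more than 19.4% of cells, so these zeros were fixed by the depth. No paired analysis was possible because 1 plate holds both colours and no replicate is numbered within it. With 8 photoconverted cells, a share of 4 in 8 has an exact interval of 15.7 to 84.3%, so differences of 20 points lie within counting error.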
